A study of Bos taurus with 12 samples.

Results

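RASD1, RGS16 and KCNMB4 are genes of cell signalling and membrane excitability, measured here by 4 of the 21475 probes of a bovine array, or 3 of the 13681 genes kept for testing. They were picked because their levels differed between treatments, as a small GTPase, a regulator of G proteins and a potassium channel subunit. Their own levels and differences in the 3 groups are therefore a description and carry no test. All 3 genes passed the filter on dim probes.

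RASD1, also called Dexras1, is a Ras-like small GTPase that was named for its induction by dexamethasone in a pituitary cell line. It acts on Gi proteins without a receptor and binds the adaptor NOS1AP. RGS16 is a regulator of G protein signalling: it speeds the hydrolysis of GTP by the alpha subunits of Gi and Gq proteins and so shortens the signal of their receptors. KCNMB4 is the beta 4 accessory subunit of the large-conductance, calcium-activated potassium channel (BK channel), whose pore is KCNMA1, and it is best known from nervous tissue.

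The samples came from the biceps brachii of 12 bulls, 18 to 20 months old at slaughter, with 1 array for each animal. The control group was untreated. The dexamethasone group received this synthetic glucocorticoid in the feed at 0.75 mg per head for 42 days. The third group received a lower dose, 0.66 mg per head for 21 days, together with clenbuterol, a beta-adrenergic agonist, for 28 days at 2, then 4, then 6 mg per head. So the treated groups differ in the dose and duration of dexamethasone as well as in clenbuterol, and these cannot be told apart. Each group gave 4 arrays out of 8 animals, those of highest RNA quality. The tissue is whole muscle: 13 of 14 myofibre markers were tested and their summed level overlapped between groups. In whole tissue, fewer cells of a type and less RNA per cell cannot be told apart.

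An array had 53.2% to 68.7% of its spots well above background. Precision is limited by the small number of arrays. Levels are log2 signal relative to the 75th percentile of the array, so a level of 0 is the signal of that percentile, and levels of different probes are not set against each other. Of the 5 slides, 1 held arrays of both the control and the dexamethasone group, and each of the others held arrays of 1 group. The only scan day shared by groups, day 2, held control replicate 4 and replicates 1 to 3 of both treated groups. On its 7 arrays the mean signal of negative control spots was 98.6 to 123, against 59.5 to 73.1 on the other 5, so values within and outside that day are given beside the differences.

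RASD1 was lower in the muscle of bulls given dexamethasone alone than in either other group. Its level was 1.84, 1.95, 2.25 and 2.27 in control replicates 1 to 4. In the dexamethasone group it was 0.24, -0.52, -0.39 and 0.12. With clenbuterol it was 2.02, 1.21, 1.61 and 2.16. All 4 dexamethasone arrays lay below all 8 others, and the combination overlapped the controls. The probe was well above background on all 12 arrays, and its 2 spots differed by a median of 0.02 on the log2 scale and by at most 0.19.

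The group mean of RASD1 was 2.08 ± 0.22 (SD, n = 4) in controls, -0.14 ± 0.37 with dexamethasone and 1.75 ± 0.43 with the combination. Dexamethasone alone differed from control by -2.21 ± 0.24 (log2 difference ± SE of the fit), a level 4.64-fold lower. The combination differed from control by -0.33 ± 0.24, and from dexamethasone alone by 1.89 ± 0.24, a level 3.70-fold higher. Among all 13681 genes RASD1 had the 48th lowest difference between dexamethasone and control, and the 37th highest between the combination and dexamethasone. Neither rank is evidence beyond the choice of the gene.

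For RASD1, the difference between dexamethasone and control was -2.49 within scan day 2 (3 arrays against 1) and -1.89 on the other days (1 against 3). The difference between the combination and dexamethasone was 1.84 within day 2 (3 against 3) and 2.04 outside it (1 against 1). The small difference between the combination and control was -0.65 within day 2 and 0.15 outside it, so its sign depended on the day.

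On the brighter of its 2 probes KCNMB4 followed the same order of groups. Its brighter probe, which stands for the gene, gave levels of -2.39, -2.84, -3.17 and -2.57 in control replicates 1 to 4. The dexamethasone arrays gave -5.20, -5.36, -5.09 and -5.36. The combination arrays gave -2.82, -3.67, -3.75 and -3.15. The dexamethasone arrays again lay below all 8 others, while the combination overlapped the controls. The probe was well above background on every control and combination array but on only 1 of 4 dexamethasone arrays, so the narrow spread of that group is a spread of signals mostly at background. On that 1 array, replicate 4, only 1 of the 2 spots was above background.

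The group mean of KCNMB4 was -2.74 ± 0.34 (SD, n = 4) in controls, -5.25 ± 0.13 with dexamethasone and -3.35 ± 0.44 with the combination. Dexamethasone alone differed from control by -2.51 ± 0.23 (SE), 5.69-fold lower. Setting each dexamethasone array to no less than its lowest signal called well above background made this 5.51-fold. That floor is the lowest of any probe on the array, not a limit for this probe. The combination differed from control by -0.60 ± 0.23 and from dexamethasone alone by 1.91 ± 0.23, or 3.75-fold higher. These were the 29th lowest difference between dexamethasone and control and the 33rd highest between the combination and dexamethasone.

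On the brighter KCNMB4 probe the direction was the same within and outside scan day 2 in every contrast. Dexamethasone minus control was -2.65 within day 2 and -2.56 outside it. The combination minus dexamethasone was 1.80 within and 2.22 outside. The combination minus control was -0.84 within and -0.34 outside.

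A dimmer KCNMB4 probe measured the same gene near background. It was above background on 2 of 4 control arrays, 0 of 4 dexamethasone arrays and 2 of 4 combination arrays. Its levels were -5.30, -4.44, -4.78 and -4.99 in controls, -7.19, -6.39, -5.84 and -5.93 with dexamethasone, and -3.97, -5.37, -5.78 and -4.01 with the combination. Here too the dexamethasone arrays lay below all 8 others. No dexamethasone array was well above background, so the size of the fold is not settled. For a floor, the dim group was taken at the lowest signal well above background on each array, or its own signal where higher. Dexamethasone was then 2.34-fold lower than control, and the combination 2.50-fold higher than dexamethasone. That floor is the lowest of any probe on the array. On dexamethasone replicates 1 to 3 the brighter probe was not above background at -5.20, -5.36 and -5.09. So these folds are not lower limits. The probes disagreed on the combination against control, where the dimmer one gave 0.09 ± 0.44 (-0.05 within scan day 2 and 0.83 outside it) and the brighter one -0.60. In the other contrasts the dimmer probe kept its sign by day, at -1.49 within and -1.10 outside for dexamethasone minus control, and 1.43 and 1.92 for the combination minus dexamethasone. The array design gives the brighter probe no gene number, and it is named through the human match in its description, while the dimmer one is named through a gene number.

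RGS16 went the other way: it was higher in both treated groups than in controls. Its level was -5.62, -6.43, -5.38 and -5.57 in control replicates 1 to 4. The dexamethasone arrays gave -2.98, -4.36, -3.09 and -4.05. The combination arrays gave -5.14, -3.21, -4.33 and -3.87. All 8 treated arrays lay above all 4 controls, though combination replicate 1 lay just above the highest control, and the treated groups overlapped each other. The probe was well above background on 1 of 4 control arrays and on 3 of 4 arrays of each treated group. On combination replicate 3 this held for 1 of its 2 spots only.

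The group mean of RGS16 was -5.75 ± 0.47 (SD, n = 4) in controls, -3.62 ± 0.69 with dexamethasone and -4.14 ± 0.81 with the combination. Dexamethasone differed from control by 2.13 ± 0.43 (SE), 4.39-fold higher, and the combination by 1.61 ± 0.43, 3.06-fold higher. These folds are against controls of which 3 of 4 arrays were not above background. The combination and dexamethasone differed by -0.52 ± 0.43. Setting each control array to no less than its lowest signal called well above background left the folds over control at 4.39 and 3.06. That floor is the lowest of any probe and was not above the RGS16 signal on any control array. The step thus could not change the folds, which are not lower limits. On dexamethasone replicate 2 RGS16 was not above background at -4.36. With this scaling RGS16 had the 25th highest difference of all genes between dexamethasone and control and the 60th highest between the combination and control.

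The RGS16 probe was dim, and its 2 spots differed by a median of 0.20 and by up to 0.98 on the log2 scale. Its processed signal ran from 6.49 to 26.3 units in control spots, 35.8 to 155 with dexamethasone and 32.1 to 143 with the combination. By scan day, dexamethasone minus control was 2.10 within day 2 and 1.77 outside it, and the combination minus control was 1.34 within and 1.94 outside. The combination minus dexamethasone was -0.75 within day 2 and 0.17 outside it, so that difference changed sign. A background correction that adds 50 units to every signal (normexp, offset 50) brought dexamethasone minus control to 0.63 and the combination minus control to 0.36.

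**Figure D1:**
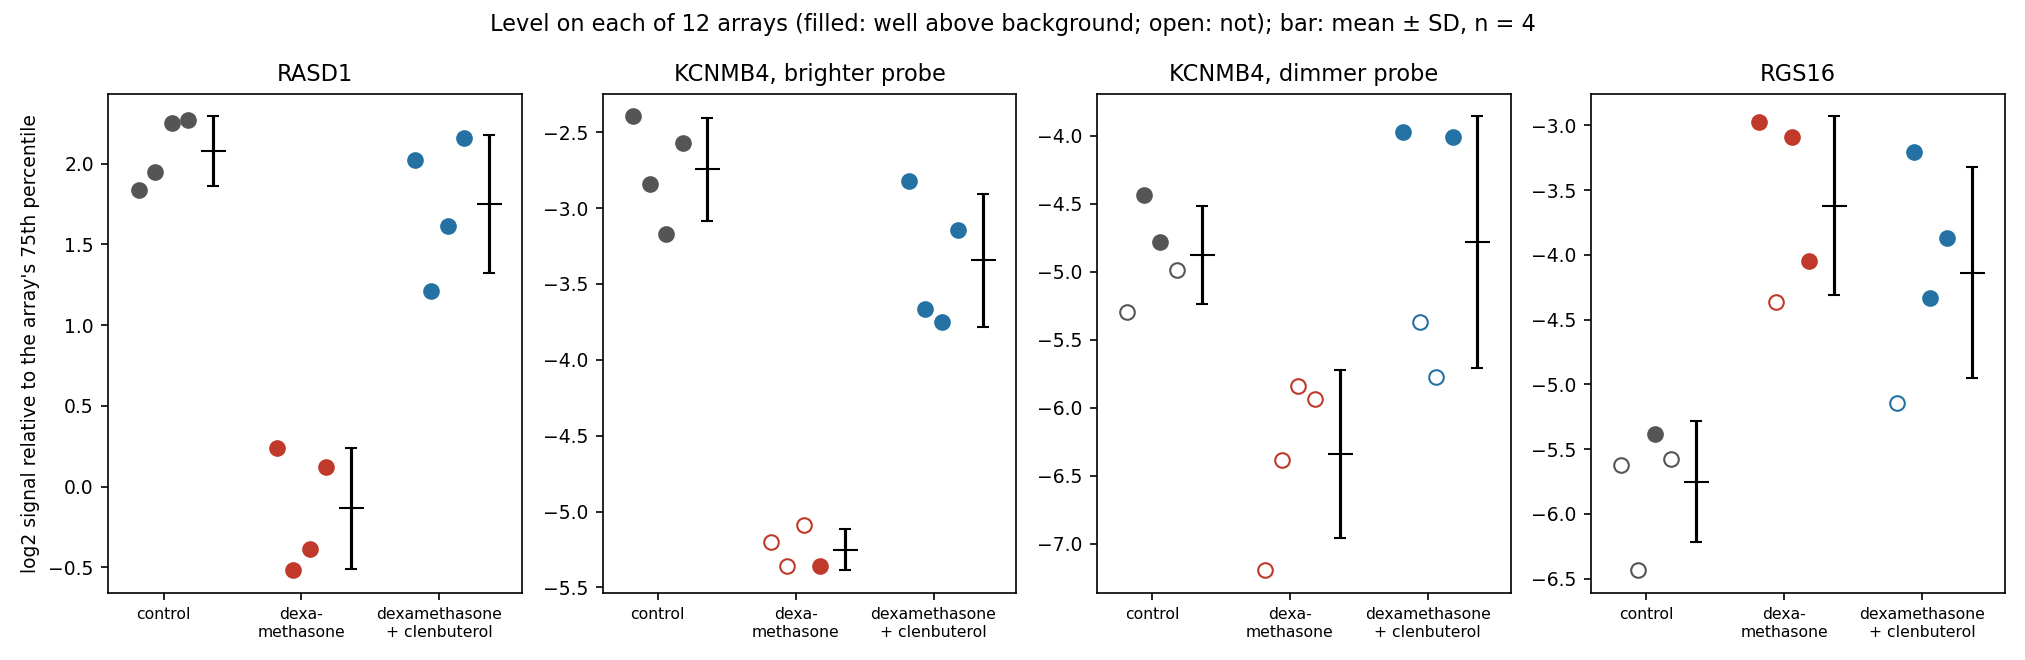
Level of RASD1, of both KCNMB4 probes and of RGS16 on each of 12 arrays (log2 signal relative to the array's 75th percentile), by group. Filled points were well above background and open points were not, and the bar beside each group is its mean ± SD (n = 4). The dexamethasone points of RASD1 and of both KCNMB4 probes lie below every other point, and the control points of RGS16 lie below every treated point.

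The contrasts can be read against how often such separation occurs. Between dexamethasone and control the values did not overlap for all 3 genes, against 6.45% of all genes tested (3.93% lower and 2.52% higher). Between the combination and control they did not overlap for 1 of 3, RGS16, against 8.22% (4.5% higher). Between the combination and dexamethasone they did not overlap for 2 of 3, RASD1 and KCNMB4, against 5.31% (2.54% higher). The genes were chosen on these contrasts, so nothing is read from these counts.

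**Figure D2:**
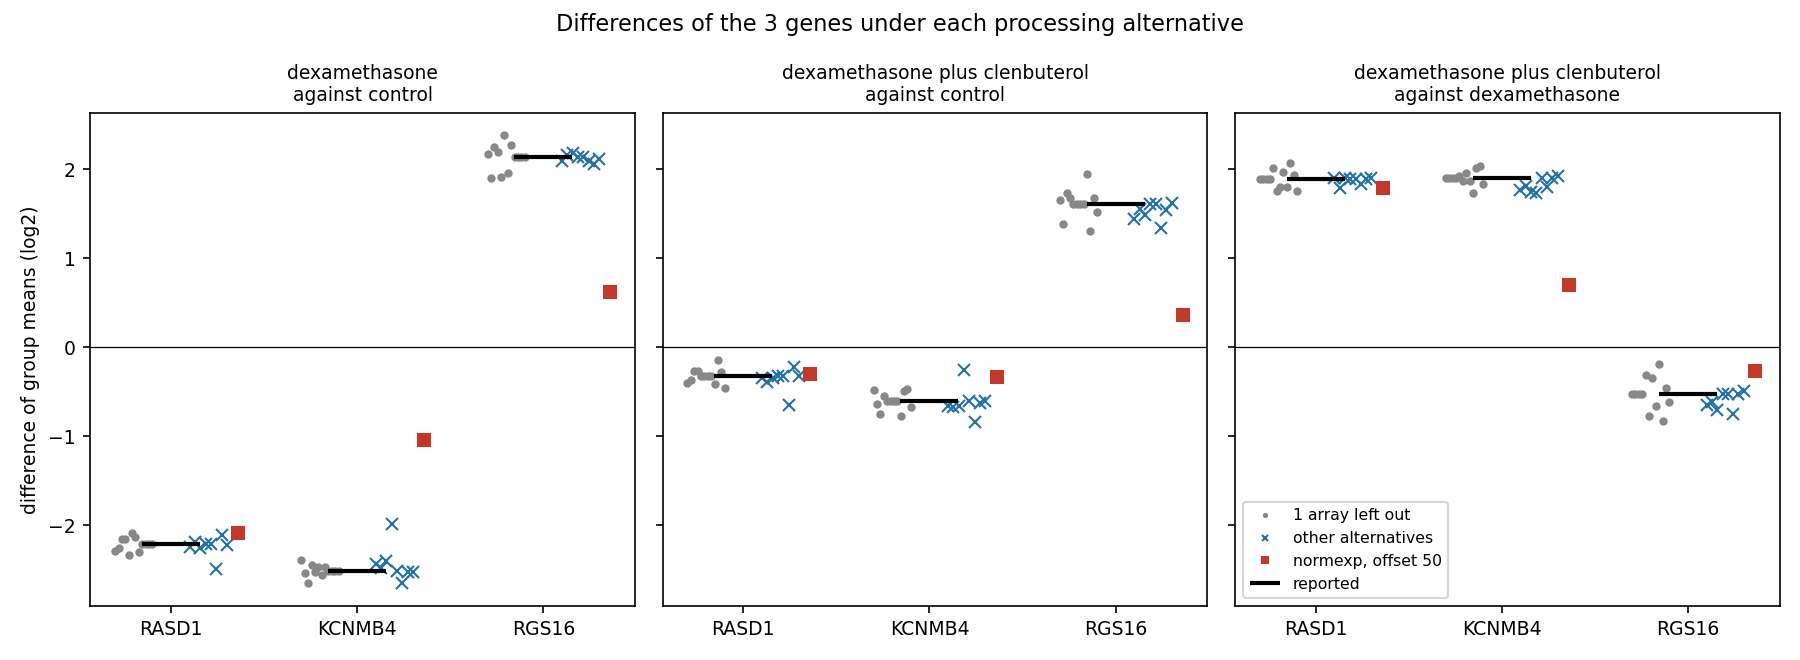
Difference of group means (log2) for RASD1, KCNMB4 and RGS16 in the 3 contrasts, as reported (black bar), with 1 array left out (grey points), with the normexp background correction (red squares) and under the other alternatives (blue crosses). No point crosses 0. The red squares of KCNMB4 and RGS16 lie nearest 0 for dexamethasone against control, at -1.04 and 0.63.

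The 3 genes were compared with each other over the 12 arrays, as a description. RASD1 and KCNMB4 had a Pearson correlation of 0.94 in level, and of 0.32 once each group's mean was subtracted. RGS16 had correlations of -0.64 with RASD1 and -0.71 with KCNMB4, which became -0.10 and -0.23 with group means subtracted. Most of the likeness in level was thus between the groups and little of it among animals of a group.

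The genes whose level was most like that of RASD1 over the 12 arrays were ARRDC2 (r = 0.96), SRGAP3 (0.96), MGP (0.95), KCNMB4 (0.94) and NFKBIA (0.94). ARRDC2 is an arrestin-domain protein, MGP the matrix Gla protein that inhibits calcification, and NFKBIA the inhibitor that holds NF-kappa-B in the cytoplasm. All share the low values with dexamethasone alone: dexamethasone minus control was -2.06 for ARRDC2, -1.46 for SRGAP3, -2.70 for MGP and -2.01 for NFKBIA. The combination minus dexamethasone was 1.55, 1.28, 2.05 and 1.43 in the same order. With group means subtracted, different genes led: MN1 (0.94), FILIP1 (0.93), FGL1 (0.91), AFF1 (0.90) and TMCO2 (0.90).

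Most like KCNMB4 in level were HPCAL1 (r = 0.97), CCND3 (0.96), MYOC (0.95), EPS8 (0.95) and PCDHA13 (0.95). HPCAL1 is a neuronal calcium sensor, CCND3 is cyclin D3 and MYOC is the secreted protein myocilin. Their differences between dexamethasone and control were smaller than that of KCNMB4, from -1.10 for CCND3 to -2.07 for MYOC. With group means subtracted the leading genes were LIMD2 (0.86), PECAM1 (0.85), ANKFY1 (0.85), LRRC75A (0.84) and PDXK (0.83), and no gene with a symbol passed 0.9. PECAM1, a marker of endothelial cells, differed by -0.46 between dexamethasone and control. Of the 12 endothelial markers tested, 9 were above 0 in that contrast, and the median was 0.24.

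Most like RGS16 in level were GSPT1 (r = 0.94), SAMD4A (0.92), TK1 (0.91), BCL3 (0.90) and POLR2I (0.90). GSPT1 is translation termination factor eRF3a, TK1 is thymidine kinase and BCL3 is an atypical inhibitor of NF-kappa-B. Their differences between dexamethasone and control ran from 0.36 for TK1 to 1.03 for SAMD4A, all smaller than that of RGS16. With group means subtracted, GCLM (0.93), FNDC1 (0.91), RPA3 (0.91), AP3D1 (0.91) and ITPR3 (0.90) led. These correlations share the 12 arrays, their scaling and, for the levels, the group differences.

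The relatives of the 3 genes, and the wider pathway, were not part of the rule that picked the 3 genes. They were tested with limma over all 13681 genes, but their lists were drawn up with earlier results of these data known. Of 188 other genes on 9 signalling lists, 170 had a probe and 129 were tested. Against control, 1 of the 129 changed with dexamethasone (GNG2, lower), where 0.621% of all genes were called and 0.592% were called lower. None of the 129 passed limma's test with the combination, where 0.0439% of all genes were called, or between the combination and dexamethasone, where 0.0146% were. That last share is 2 genes, RASD1 and KCNMB4 themselves, which were chosen for their differences, so nothing is read from their calls. In each contrast 13 of the 129 had an unadjusted p under 0.05, which 12.3%, 12.1% and 11% of all genes had. The median difference of the 129 was 0.04, 0.08 and 0.10, beside 0.03, 0.03 and 0.02 over all genes, so the lists as a whole were close to the background.

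Of the other Ras-like GTPases, 24 were tested and none was called in any contrast. Between dexamethasone and control 18 of the 24 were above 0, where 54.6% of all genes were, with a median of 0.23, while RASD1 was below 0. The nearest paralog RASD2 was not well above background on any of 12 arrays and was not tested. GEM, a GTPase that binds calcium channel beta subunits, had a higher level with dexamethasone: -0.51, -0.43, 0.50 and -1.17 in controls against 2.43, 0.79, 1.63 and 2.31. Those values did not overlap, and the difference was 2.19 ± 0.49 (SE; 4.58-fold), with limma's adjusted p = 0.0753. DIRAS1, another small GTPase, differed by 1.09 ± 0.36 between dexamethasone and control (adjusted p = 0.225, limma) and by -1.04 ± 0.36 between the combination and dexamethasone (adjusted p = 0.311). RRAS, of the classical Ras branch, had the smallest p of the list in the combination against control, with a difference of 0.52 ± 0.18 (adjusted p = 0.301, limma). DIRAS3 had the highest difference of the list in that contrast, 1.51. It was above background on 1 control array, 2 dexamethasone arrays and 4 combination arrays.

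None of the 11 tested genes for proteins reported to bind or act with RASD1 was called. Their differences between dexamethasone and control ran from -0.33 for GNAI1 to 0.12 for ACBD3. GNAI1, an alpha subunit of the Gi class, had a difference of 0.64 ± 0.24 between the combination and dexamethasone (adjusted p = 0.356, limma). SLC11A2, the iron importer DMT1, differed by -0.31 ± 0.15 between the combination and control (adjusted p = 0.423).

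In the RGS family, RGS16 stood on the other side of 0 from most of the tested members. Of 9 others tested, 8 were below 0 between dexamethasone and control, with a median of -0.39, where 45.4% of all genes were. Between the combination and dexamethasone 8 were above 0, with a median of 0.54, where 52.3% of all genes were. Some were near background: RGS10, RGS11 and RGS13 were above it on 5, 7 and 4 of 12 arrays. Of their dexamethasone arrays, 1, 1 and 0 were above it, in the same order. These genes passed the filter mainly through the other groups, which favours a low value with dexamethasone. Members that failed the filter are not in the counts, so nothing is read from them about RGS16 or the family. None of the 9 was called in any contrast. RGS2, an inhibitor of Gq signalling, was well above background on all arrays and differed by -0.22 ± 0.48 between dexamethasone and control, with a 95% interval of -1.28 to 0.83. RGS5, a marker of pericytes, differed by -0.39 ± 0.26 on its brighter probe and by 0.21 on its dimmer one, so its direction is not settled. RGS3 differed most in the combination against control, by 1.07 ± 0.38 (adjusted p = 0.317, limma), and by 0.34 on its dimmer probe. RGS4 was above background on 1 of 12 arrays and was not tested.

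RGS1, which is best known from lymphocytes, had the largest difference of the RGS family and the widest spread. Its level was -0.55, -0.05, 1.08 and 0.29 in controls and -0.06, -4.55, -5.40 and -3.87 with dexamethasone. Dexamethasone replicate 1 lay among the controls, while the other 3 lay far below, and replicates 2 and 3 were not above background, so the sizes of these differences rest partly on background signal. The difference was -3.66 ± 1.02 (SE; adjusted p = 0.147, limma), and without dexamethasone replicate 1 it was -4.80 with an adjusted p of 0.00889, the lowest of 24 alternatives that ran up to 0.591. The combination minus dexamethasone was 2.59 ± 1.02 (adjusted p = 0.377), or 3.73 without that array (adjusted p = 0.0491). The mean level of leukocyte markers was -2.14 on dexamethasone replicate 1 and -3.17 to -4.11 on the other 3, against -2.63 to -2.19 in controls. On combination replicates 1 to 4 the markers were at -3.09, -2.90, -3.02 and -2.56. RGS1 was at -1.33, -1.93, -1.58 and 1.32 on the same arrays, above dexamethasone replicates 2 to 4. The part of leukocytes in the RGS1 values was not tested.

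GNG2, a gamma subunit of heterotrimeric G proteins, was the signalling gene that fell with dexamethasone. Its level was -1.51, -1.63, -1.66 and -2.01 in controls and -2.69, -3.11, -2.92 and -3.09 with dexamethasone. The groups did not overlap, and the fall was by 1.25 ± 0.21 on the log2 scale (2.38-fold; adjusted p = 0.0227, limma). Its dimmer probe gave -0.66. The call held in 15 of 24 alternatives, whose adjusted p ran from 0.00987 to 0.496. It was lost without control replicate 1, 2 or 3 (0.094, 0.0781 and 0.055) and without dexamethasone replicate 2 or 3 (0.0684 and 0.064). It was also lost with no filter (0.0563), with the mean of a gene's probes (0.0738) and with scan day as a block (0.496, or 0.0864 with day 2 against the rest). With the combination GNG2 was -1.97, -2.69, -1.79 and -2.19, a difference from dexamethasone of 0.79 ± 0.21 (adjusted p = 0.192).

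Among the other 24 G protein genes tested, none was called. GNB5 had the highest differences from control, 1.48 with dexamethasone and 1.39 with the combination. It was above background on 2 control arrays and on all 4 arrays of each treated group. GNAO1, the Go alpha subunit, was above background on all 4 control arrays, 1 dexamethasone array and no combination array. It passed the filter mainly through the controls. Its group means were -4.48 in controls and -6.14 with the combination. They were 2.87-fold apart with the dim group at no less than each array's lowest signal called well above background. That is not a lower limit, and the difference was not called (adjusted p = 0.219, limma). Receptor kinases and arrestins (7 tested) and adenylyl cyclases with protein kinase A genes (17 tested) had no call in any contrast. The adenylyl cyclase gene ADCY1 had the lowest differences from control of the latter list, -1.67 with dexamethasone and -1.51 with the combination. It was above background on 3 control arrays, 1 dexamethasone array and 2 combination arrays, so these sizes rest partly on background signal. GRK2, which phosphorylates active receptors such as the beta-adrenergic ones, differed by 0.50 ± 0.16 between the combination and control (adjusted p = 0.27). PKIA, an inhibitor of protein kinase A, differed by 0.60 ± 0.20 between dexamethasone and control (adjusted p = 0.227), and PRKACB, a catalytic subunit of that kinase, by 0.54 ± 0.23 between the combination and control (adjusted p = 0.382).

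None of the other 3 BK channel genes tested was called in any contrast. The pore gene KCNMA1 was well above background on all 12 arrays, at 1.86, 1.28, 2.35 and 2.10 in controls, 1.97, 2.11, 2.13 and 2.11 with dexamethasone, and 1.71, 2.04, 1.81 and 1.76 with the combination. The 3 groups overlapped. Dexamethasone minus control was 0.18 ± 0.21 with a 95% interval of -0.26 to 0.63 (adjusted p = 0.776, limma), and the combination minus dexamethasone was -0.25 ± 0.21 with an interval of -0.70 to 0.19. Both intervals leave out a difference of the size seen in KCNMB4. The beta 1 subunit KCNMB1, best known from smooth muscle, was at -4.35 ± 0.83 (SD, n = 4) in controls, -5.05 ± 0.92 with dexamethasone and -5.22 ± 1.33 with the combination, and its differences from control, -0.70 and -0.87, had an SE of 0.65. The beta 3 subunit KCNMB3 was above background on 3 control arrays, 1 dexamethasone array and no combination array. KCNMB3 thus passed the filter mainly through the controls, where it was highest, and nothing is read from its differences. Its group means were -5.25 in controls and -5.91 with the combination, a difference that was not called (-0.65 ± 0.39 SE, adjusted p = 0.517, limma). KCNMB2 had no probe matched to it.

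Other potassium channels (20 tested) and the channels and calcium-handling proteins of the muscle membrane and sarcoplasmic reticulum (20 tested) had no call. KCNN3, a small-conductance calcium-activated channel, differed by -0.77 ± 0.21 between dexamethasone and control, with no overlap and an adjusted p of 0.149 (limma). KCND3, a voltage-gated channel near background, differed by 0.55 ± 0.23 between the combination and control (adjusted p = 0.373). ASPH, which includes junctin of the sarcoplasmic reticulum, differed by -0.61 ± 0.22 between dexamethasone and control (adjusted p = 0.272), and its other probes gave -0.45 and -0.13. CACNA1S, the voltage sensor of excitation-contraction coupling, differed by 0.58 ± 0.21 between the combination and control (adjusted p = 0.326). These genes were named for the smallest p, not the largest difference. In the second list CASQ2 had the highest differences from control, 2.41 with dexamethasone and 2.24 with the combination, and neither was called. Its probe was above background on 3 control arrays and on all 4 arrays of each treated group.

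**Figure D3:**
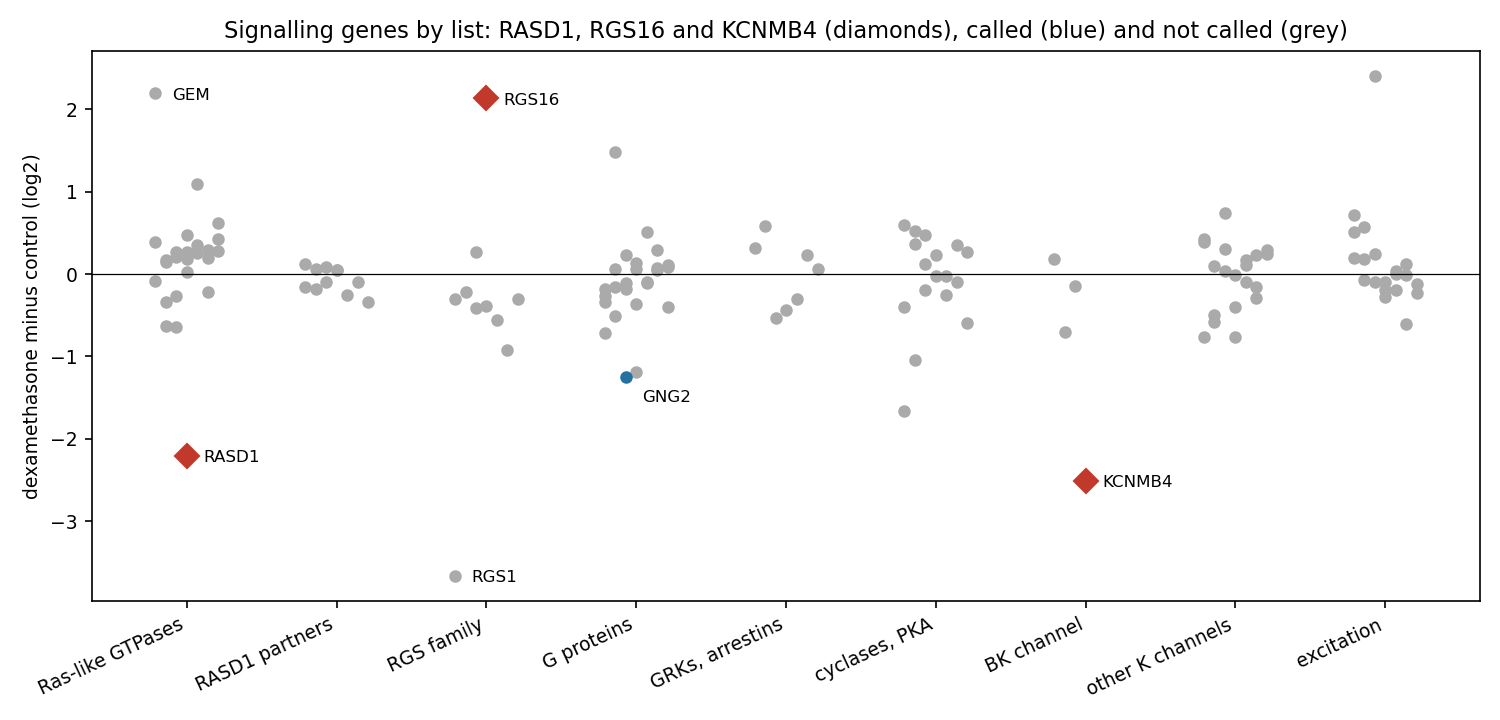
Difference between dexamethasone and control (log2) for each tested gene of the 9 signalling lists, 1 column per list. RASD1, RGS16 and KCNMB4 are red diamonds, at -2.21, 2.13 and -2.51, the called gene GNG2 is blue and genes not called are grey. GEM, at 2.19, and RGS1, at -3.66, are labelled.

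Markers of other cells in muscle were examined beside the 3 genes. For fibroblasts, 11 of 12 markers were tested (TCF21 was below the filter). Their summed level, in multiples of the 75th percentile signal, was 53.0 to 68.4 in controls, 15.7 to 47.7 with dexamethasone and 31.6 to 61.0 with the combination. All 11 were below 0 between dexamethasone and control, with a median of -1.20, where 45.4% of all genes were below 0. None was called, but 7 of the 11 had an unadjusted p under 0.05 (limma), which 12.3% of all genes had. For 5 of the 11 every dexamethasone value lay below every control, as for 3.93% of all genes. The markers' order of groups was that of RASD1 and of the brighter KCNMB4 probe. On dexamethasone replicate 1 the summed level was 47.7, below every control, while the mean log2 level of the markers was 1.49, inside the control range of 1.29 to 1.71. On that array RASD1 was at 0.24 and KCNMB4 at -5.20, below every control. This is 1 array, and the part of fibroblasts in these levels was not tested.

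**Figure D4:**
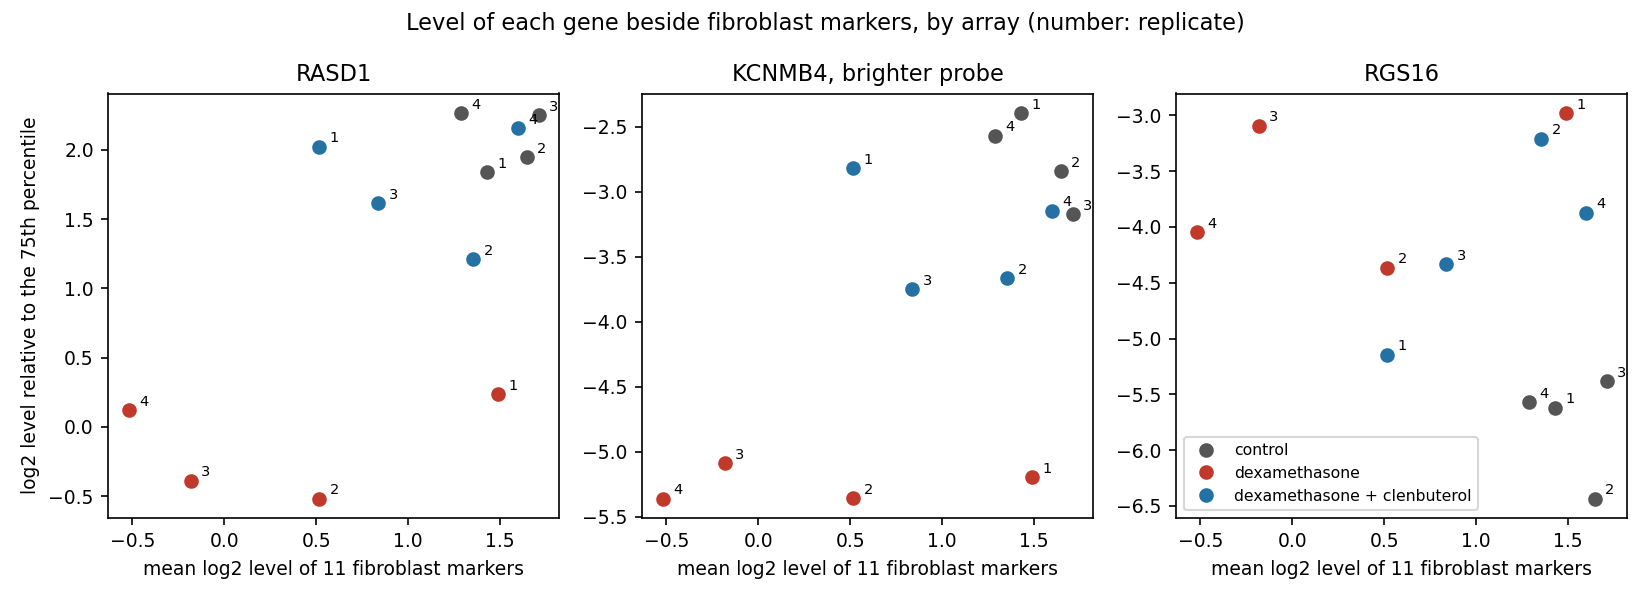
Level of RASD1, KCNMB4 (brighter probe) and RGS16 on each array (vertical axis, log2 relative to the 75th percentile) against the mean log2 level of 11 fibroblast markers on that array (horizontal axis). Colours are groups and numbers are replicates. Dexamethasone replicate 1, at 1.49, lies in the markers' control range by this mean but not by their summed level. Its RASD1 and KCNMB4 lie with the other dexamethasone arrays. The part of fibroblasts in these levels was not tested.

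For leukocytes, 12 of 15 markers were tested (CD3D, MS4A1 and ITGAM were below the filter), and their summed level was 3.63 to 5.41 in controls, 1.13 to 5.35 with dexamethasone and 1.98 to 3.45 with the combination. Of these 12, 9 were below 0 between dexamethasone and control, with a median of -0.715, where 45.4% of all genes were below 0. CD3E, a chain of the T cell receptor complex, was the 1 marker called in that contrast. Its difference was -1.74 (adjusted p = 0.0306, limma), and 0.592% of all genes were called lower. CD163 had the lowest difference, -2.73, and was not called. The highest was 0.26, for CD79A. The 12 endothelial markers summed to 5.51 to 7.55, 6.54 to 9.77 and 8.86 to 9.83 in the same order of groups, and the 9 smooth muscle and pericyte markers to 14.8 to 19.9, 18.5 to 25.3 and 16.4 to 47.2. The 8 nerve and Schwann cell markers tested overlapped, at 5.36 to 9.0, 6.26 to 8.31 and 5.88 to 8.13, with CDH19, GFAP and NEFL below the filter. The 5 adipocyte markers summed to 0.544 to 0.709, 0.926 to 3.34 and 0.645 to 0.941, with ADIPOQ and LEP below the filter. The 3 red blood cell markers overlapped, at 3.18 to 5.73, 2.63 to 7.19 and 4.67 to 6.25, with ALAS2, SLC4A1 and EPB42 below the filter. The 13 myofibre markers were at 3056 to 3770, 2518 to 4105 and 2757 to 3960. The part of other cell types in the levels of RASD1, RGS16 and KCNMB4 was not tested beyond these values.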

How the data were processed

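Linear spot intensity was read from the deposited scanner files, which were written by Agilent Feature Extraction 9.5.1.1, per the file headers. RNA was labelled with Cy3 and hybridised to 1-colour arrays, per the labels' protocols. The authors' deposited value table, also intensity, ranks spots as the scanner signal does and shares 1 maximum over all arrays. The sources used here do not say how it was normalized. It served as an alternative.

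Log2 of the processed signal was taken, the 75th percentile of the array over non-control spots subtracted, outlier spots dropped and spots of a probe averaged. The filter kept the 14703 probes that 4 or more of 12 arrays measured well above background, and the probe of highest mean stood for a gene with several. A probe counted as well above background on an array where any of its spots was. Names came from a RefSeq table (assembly ARS-UCD2.0): 10034 probes through a gene number, 3412 an accession, 395 a symbol, 2786 the human match in the description, and 4848 kept the file's name. The sources name no genome build, so no coordinates are given, and no probe or gene sequences were used here.

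Tests used limma 3.58.1 under R 4.3.3 (lmFit with 3 group means on all 12 arrays, eBayes, two-sided p, Benjamini-Hochberg over 13681 genes per contrast, called at an adjusted p under 0.05), tested on simulated data. The contrasts share samples and are not independent. The 3 genes and all lists were chosen with earlier results of these data known. Named genes are the 3 genes, 8 fixed relatives, up to 3 called genes of smallest p per list and contrast (1 where none was called), and the 5 genes most correlated with each of the 3, over levels and with group means subtracted. GEO's labels do not number the replicates, which are named in accession order. For dexamethasone replicate 4 the label and the file header name different slides, and the header was used. The 24 alternatives cover scaling, background, filter, probes, scan day, slide and leaving out each array.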

Additional observations from a re-analysis of the deposited data

Results flagged for a closer look

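In the 75 groups of 4 arrays examined (each probe of RASD1, RGS16 and KCNMB4, and the relatives and list genes named), 3 had 1 array whose gap to the nearest other was, as a share of the group's range, above Dixon's 95% limit. Chance alone gives about 1 in 20 groups. None was a group of RASD1, RGS16 or KCNMB4. RGS5 in control replicate 4 was 1.849, below the other controls at 2.169 to 2.181. KCNMA1 in dexamethasone replicate 1 was 1.965, below the others at 2.113 to 2.133. GNAO1 in control replicate 3 was -5.257, below the others at -4.241 to -4.197.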

How the results depend on the processing

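No paired analysis was possible because the labels give no replicate numbers shared between groups. The differences of RASD1, RGS16 and KCNMB4 kept their direction in all 3 contrasts under the 9 alternatives that can change a difference and with each array left out. With 1 array left out, dexamethasone minus control was -2.34 to -2.09 for RASD1, 1.91 to 2.38 for RGS16 and -2.65 to -2.39 for KCNMB4; the combination minus control was -0.46 to -0.14, 1.30 to 1.95 and -0.78 to -0.47; and the combination minus dexamethasone was 1.75 to 2.07, -0.83 to -0.18 and 1.73 to 2.04. The normexp correction, which adds 50 units to signals that for RGS16 and KCNMB4 were of like size, moved dexamethasone minus control to 0.63 for RGS16 and -1.04 for KCNMB4, the combination minus control to 0.36 for RGS16, and the combination minus dexamethasone to 0.70 for KCNMB4. With the mean of a gene's probes, KCNMB4 was -1.98 between dexamethasone and control and -0.25 between the combination and control. Of all genes, 85 were called between dexamethasone and control, but 26 with no filter, 13 with scan day 2 against the rest as a block, 0 with scan day as a block, and 24 to 262 with 1 array left out. Between the combination and control 6 were called, but 3 with quantile normalization or only the groups compared, 2 with the mean of probes, 0 with no filter, a filter at 8 of 12 arrays, either scan block or the slide, and 0 to 11 with 1 array left out. Between the combination and dexamethasone 2 were called, but 1 with normexp, 0 with quantile or median scaling, no filter, the mean of probes, either scan block, the slide or only the groups compared, and 0 to 74 with 1 array left out. The 262 and 74 came without dexamethasone replicate 1. Signalling-list calls between dexamethasone and control were 2 with normexp (GNG2 and GEM, adjusted p = 0.0452) and 2 with the authors' value table (GNG2 and GNAO1), 0 with no filter, the mean of probes or either scan block, and 0 to 4 with 1 array left out, the 4 being GNG2, RGS1, MRAS and PKIB without dexamethasone replicate 1. Between the combination and dexamethasone they were 0 to 1 with 1 array left out, RGS1 without dexamethasone replicate 1. The normexp alternative also started from the mean spot signal rather than the processed one, and no other offset was tried. The cause of these changes, those with normexp included, was not tested. Signal over background limits RGS16, the dimmer KCNMB4 probe, and KCNMB4 with dexamethasone alone.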

Other observations

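In the RefSeq gene order of cattle, the 3 nearest tested genes on each side of RASD1 and of KCNMB4 were read as a check chosen after the data had been seen. None of these 12 neighbours passed limma's test in any contrast, where 0.621%, 0.0439% and 0.0146% of all genes were called. In each contrast 2 of the 12 had an unadjusted p under 0.05, which 12.3%, 12.1% and 11% of all genes had. PEMT and MED9, the immediate neighbours of RASD1, differed by 0.18 and -0.16 between dexamethasone and control and by 0.11 and 0.002 between the combination and dexamethasone. CNOT2 and PTPRB, the nearest tested genes on either side of KCNMB4, differed by -0.17 and -0.56 between dexamethasone and control. Between the combination and dexamethasone they differed by 0.03 and 0.87 (adjusted p = 0.959 and 0.192, limma), and PTPRR, next to PTPRB among the tested genes, by 0.93 (adjusted p = 0.304).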
